A study of Mus musculus with 12 samples.

Results

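Genes of MHC class I antigen processing and presentation were followed in GFP(+) cells sorted from mouse liver before and after bile duct ligation (BDL), an operation that blocks the flow of bile. The 10 were chosen by gene name as *H2-K1*, *H2-D1*, *B2m*, *Tap1*, *Tap2*, *Tapbp*, *Psmb8*, *Psmb9*, *Psmb10* and *Nlrc5* and were all found among the 16971 genes of the deposited expression table. At BDL day 14 against day 0, 5 of the 10 had a mean lower by over 1.5-fold and 0 had one higher by that much, where 28.8% of all kept genes were lower and 21.2% higher. *H2-K1*, *Psmb9* and *Nlrc5* differed most, and the peptide transporter genes *Tap1* and *Tap2* differed from day 0 by less than 3 standard errors.

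On mm10, *Tapbp*, *H2-K1*, *Psmb9*, *Tap1*, *Psmb8*, *Tap2* and *H2-D1* lie in the MHC region of chromosome 17, from 33915899 (the start of *Tapbp*) to 35267499 (the end of *H2-D1*). *B2m* lies on chromosome 2 (122147686 to 122153083), and *Nlrc5* (94434356 to 94527272) and *Psmb10* (105935735 to 105938444) lie on chromosome 8.

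All mice were Prom1CreERT2-nLacZ/+;Rosa26Lsl-GFP/+ on a C57BL/6 background, heterozygous for each transgene. CreERT2 is made from the *Prom1* locus, so that tamoxifen switches GFP on for good in cells that use *Prom1*, and all groups received tamoxifen at 6 weeks of age and 7 days before the operation. The groups were day 0 (n = 3, sham in the labels and before BDL in the study's methods), BDL day 3 (n = 3) and BDL day 14 (n = 4 in the table of 6 labelled). The study left 2 BDL day 14 samples out for too few reads after trimming and alignment, and which 2 is not named. It also kept a sample each of day 0 and BDL day 3 out of sequencing for poor RNA quality. Cells came from the nonparenchymal fraction after exclusion of dead cells, and both sexes were mixed. The study counts the samples of a group as mice, with females in the majority at day 0 and males in both BDL groups, and the part of sex in the results was not tested.

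MHC class I molecules show peptides from proteins made inside the cell to CD8 T cells. Proteasomes cut the proteins, the TAP transporter carries the peptides into the endoplasmic reticulum, and there they are loaded onto a heavy chain paired with beta-2-microglobulin. Interferons induce most of these genes, among them the 3 catalytic subunits that turn the constitutive proteasome into the immunoproteasome, and *Nlrc5* encodes the transactivator of class I genes. Nearly all nucleated cells express class I, with high levels in leukocytes and lower ones in hepatocytes.

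Promoter sequences from RefSeq (GRCm38.p6) were matched for 8 of the 10 genes, all but *Tap2* and *Nlrc5*. They are shown for *H2-K1* and *B2m*, which encode a heavy chain and its partner, because class I promoters carry a known block of motifs through which interferon factors and NLRC5 act. Capitals mark matches on either strand to 5 motifs, spelled AANNGAAA (interferon regulatory factor), GGGNNTTCC (NF-kB), TTCNNNGAA (gamma-activated site), ATTGG (the inverted CCAAT box bound by NF-Y) and TGACG (the core site of CREB and ATF factors). The *H2-K1* sequence is the 250 bases before its start, at chr17:34000348-34000597 on the minus strand, and the *B2m* sequence is the 249 bases at chr2:122147437-122147685 on the plus strand, which end at its annotated first exon.
H2-K1: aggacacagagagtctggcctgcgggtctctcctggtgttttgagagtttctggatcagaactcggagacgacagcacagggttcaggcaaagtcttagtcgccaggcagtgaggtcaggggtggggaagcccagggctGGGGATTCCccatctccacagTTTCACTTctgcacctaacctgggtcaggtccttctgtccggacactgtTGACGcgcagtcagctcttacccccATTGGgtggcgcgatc
B2m: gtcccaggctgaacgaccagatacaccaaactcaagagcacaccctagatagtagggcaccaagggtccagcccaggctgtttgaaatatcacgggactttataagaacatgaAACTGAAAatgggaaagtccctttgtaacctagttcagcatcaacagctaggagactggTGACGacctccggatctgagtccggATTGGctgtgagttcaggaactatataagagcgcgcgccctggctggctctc

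In *H2-K1*, *H2-D1* and *B2m* the CREB core site and the inverted CCAAT box lay in the same order and 25 bases apart, counted from first base to first base. This arrangement was looked for after the single matches had been seen. It occurred in 18 of 32851 promoter entries (0.0548%), which belong to 15 genes, and *H2-M3* was the only gene among the other listed class I chains that had it. The stretches are shown 5′ to 3′ to compare them, at chr17:34000359-34000388 (minus strand), chr17:35262993-35263022 (plus) and chr2:122147609-122147638 (plus).
H2-K1: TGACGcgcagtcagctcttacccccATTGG
H2-D1: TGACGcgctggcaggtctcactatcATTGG
B2m: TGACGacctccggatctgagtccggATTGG

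The heavy chain genes also shared an NF-kB match followed, 21 bases on, by an interferon regulatory factor match on the other strand. That pair was found in 4 entries (0.0122%), which belong to *H2-K1*, *H2-D1* and *H2-Q6*. It too was looked for after the single matches had been seen, with the spacing and orientation taken from these heavy chain genes, so its share is a description only. The *H2-K1* stretch lies at chr17:34000430-34000458 (minus) and the *H2-D1* stretch at chr17:35262923-35262951 (plus).
H2-K1: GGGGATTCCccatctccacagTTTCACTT
H2-D1: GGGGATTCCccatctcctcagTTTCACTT

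A global alignment of the 250-base *H2-K1* and *H2-D1* windows gave 68.0% identical bases, beside 51.2% and 52.8% for each of them against *B2m*. The shared matches lie farther from the RefSeq start in *H2-D1*, with the NF-kB match at -171 there and at -111 in *H2-K1* (-125 in its other RefSeq entry). Part of each window thus has no counterpart in the other, and the figure understates their likeness where they correspond. RefSeq starts can differ from those of the expression table. By its coordinates the windows of *H2-D1*, *Tapbp*, *Psmb8* and *Psmb9* lie inside the genes. Taken singly, the motifs are common or short. The interferon regulatory factor motif stood in 3 of the 8 windows and in 21.3% of all entries, the NF-kB motif in 2 and 4.98%, the inverted CCAAT box in 6 and 33.8%, the CREB core site in 5 and 17.8%, and the gamma-activated site in 1 (*Psmb8*) and 7.02%. *Tap1* and *Psmb9* are transcribed away from each other, and their windows share 225 bases. A match is a description of letters and not evidence of binding.

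The table gives 1 mean per group (the authors' least squares mean of normalized counts) and no value per library, so no test was made. It also gives each gene's highest library and the geometric mean over the 10 libraries. The gap between a geometric and an arithmetic mean grows with the spread, and from it 1 spread per gene, pooled over the 3 groups (SD on the log2 scale, 7 residual degrees of freedom), and the standard error (SE) of each log2 ratio of means were derived. Differences over 3 SE are described as beyond the spread and smaller ones as within it, which does not show that the groups are alike. This assumes that the geometric mean was taken over the same normalized values as the group means, which the table does not state. The same values set limits on where a single library can lie. As all groups draw on 1 spread, libraries of a pair of groups cannot all reach their limits at once, and groups are said not to overlap where an overlap would need a larger spread than the table allows. Both steps were chosen after the table had been seen, and they take the largest spread that the rounding of the table allows. The spread of the 10 genes ranged from 0.21 for *H2-K1* to 0.62 for *Nlrc5*, and its median over the 12889 genes kept for their level was 0.60.

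**Figure D1:**
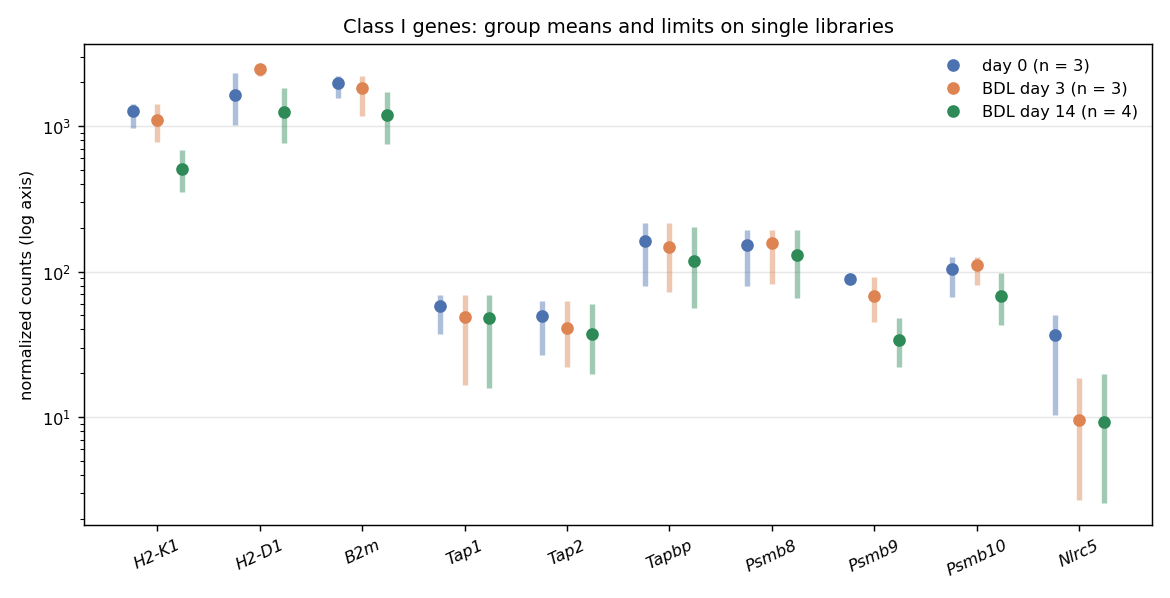
Level of each gene by group in normalized counts on a log axis. Points are the authors' group means and bars are the derived limits on a library of the group, each taken alone. The *H2-K1* bar of BDL day 14 (353 to 687) lies wholly below that of day 0 (965 to 1415), whereas the 3 *Tap1* bars overlap.

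*H2-K1* and *H2-D1* encode the classical heavy chains H-2K and H-2D. In the order day 0, BDL day 3 and BDL day 14, used for all triplets of values from here on, *H2-K1* had group means of 1270, 1100 and 508 normalized counts. Its libraries lay between 965 and 1415 before BDL, between 775 and 1415 on day 3 and between 353 and 687 on day 14, so that every BDL day 14 library lay below every library of the other groups. The log2 ratio was -1.32 (SE 0.16) at BDL day 14 against day 0, a 2.5-fold lower mean, and -1.11 (SE 0.16) against BDL day 3. At BDL day 3 against day 0 it was -0.21 (SE 0.17), within the spread.

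For *H2-D1* the means were 1630, 2470 and 1250 normalized counts. BDL day 3 was the highest group, and only there can the gene's highest library (2590) lie. The BDL day 3 libraries lay between 2205 and 2595 and those of BDL day 14 between 764 and 1842, so these groups did not overlap. The log2 ratio of BDL day 14 against BDL day 3 was -0.98 (SE 0.21). Against day 0, BDL day 3 was 1.52-fold higher, with a log2 ratio of 0.60 (SE 0.22) that is 2.70 SE and thus within the spread. The printed values taken as they stand give 3.79 SE, the fold is 1.48 without the highest library, and the log2 ratio is 0.28 with quantile normalization. BDL day 14 against day 0 gave -0.38 (SE 0.21).

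The heavy chains therefore did not keep the same proportion. Per kb of exon, the level of *H2-K1* was 0.684, 0.391 and 0.357 of that of *H2-D1* in the 3 groups. The log2 change of this ratio was -0.81 (SE 0.28) at BDL day 3 and -0.94 (SE 0.26) at BDL day 14, of which only the latter was beyond 3 SE. A factor that scales a whole group cancels in such a ratio, and its SE takes the genes as independent, which genes of the same libraries are not. Of the 50-base stretches of their transcripts, 9.63% for *H2-K1* and 12.8% for *H2-D1* also occur in other genes, mostly of the same family, so part of their counts could be exchanged between them.

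*B2m*, the light chain that every class I heavy chain needs, had means of 1990, 1820 and 1190 normalized counts, and ranked 40th, 54th and 68th among the listed genes. Its BDL day 14 mean was 1.67-fold below day 0, with a log2 ratio of -0.74 (SE 0.20), and -0.61 (SE 0.20) against BDL day 3, both beyond 3 SE. With quantile normalization the latter is -0.36, within 1.5-fold. The limits of the groups overlapped, with day 0 between 1565 and 2195 and BDL day 14 between 751 and 1719. Per kb, *B2m* stood at 2.17, 1.59 and 2.10 times the summed heavy chains. Without division by length it stood at 0.686, 0.510 and 0.677 times them, so which side was higher depends on the lengths used.

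*Tap1* and *Tap2* encode the paired subunits of the peptide transporter, and *Tapbp* encodes tapasin, which holds the empty heavy chain beside it. The *Tap1* means were 58.2, 48.5 and 48.3 normalized counts. *Tap2* had 49.6, 40.9 and 37.2, and *Tapbp* had 163, 148 and 119. All 3 genes had their highest mean at day 0, and none differed between any groups by over 1.5-fold or beyond 3 SE, although with quantile normalization the log2 ratio of *Tapbp* at BDL day 14 against day 0 is -0.62, past 1.5-fold.

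At BDL day 14 against day 0 the log2 ratio was -0.27 (SE 0.42) for *Tap1*, -0.42 (SE 0.26) for *Tap2* and -0.45 (SE 0.30) for *Tapbp*. The limits of their libraries overlapped among all groups, with *Tap1* between 37.2 and 68.6 at day 0 and between 15.8 and 68.6 at BDL day 14. The per-kb ratio of *Tap1* to *Tap2* was 0.810, 0.819 and 0.896 in the 3 groups, with a log2 change of 0.15 (SE 0.50) at BDL day 14. *Tap1* and *Psmb9* share 212 exonic bases on opposite strands, and 23.2% of the 50-base stretches of *Tapbp* also occur in other genes, mostly in *Gm19412*, which itself had means of at most 1.49.

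*Psmb8*, *Psmb9* and *Psmb10* encode the immunoproteasome subunits that replace those of *Psmb5*, *Psmb6* and *Psmb7*. *Psmb9* had means of 88.9, 67.8 and 33.9 normalized counts. Its BDL day 14 libraries lay between 22.1 and 47.8, below every day 0 library (83.1 to 91.8). The limits of BDL day 3 (45.2 to 91.8) touch those of BDL day 14 when each is taken alone, but an overlap would need a spread of 0.31 where the table allows at most 0.24. The BDL day 14 mean was 2.62-fold below day 0, with a log2 ratio of -1.39 (SE 0.18), and -1.0 (SE 0.18) against BDL day 3.

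*Psmb10* had means of 104, 111 and 68.2 normalized counts. It was lower at BDL day 14 than at day 0 (log2 ratio -0.61, SE 0.20) and than at BDL day 3 (-0.70, SE 0.20), both beyond 3 SE although the limits of the groups overlapped. The first is -0.58 with median-ratio scaling and the second -0.56 with quantile normalization, both just within 1.5-fold. *Psmb8* had means of 152, 157 and 130, and its log2 ratio at BDL day 14 against day 0 was -0.23 (SE 0.28), within the spread. Among the 3 subunits the largest difference from day 0 was that of *Psmb9*, and whether it exceeded that of *Psmb8* was not tested.

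At BDL day 14 the constitutive partners went the other way in their means. *Psmb5* had 55.0, 98.7 and 63.9 normalized counts, *Psmb6* had 103, 152 and 149, and *Psmb7* had 57.0, 94.7 and 89.9. All 3 means were above day 0 at both times, with 0 beyond 3 SE on either day. By over 1.5-fold, 2 were higher on day 3 and 1 on day 14, beside 19.2% and 21.2% of all kept genes.

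Per kb, *Psmb9* stood at 0.441, 0.228 and 0.116 of *Psmb6*. The log2 change at BDL day 14 was -1.92 (SE 0.38), a 3.79-fold lower ratio. The ratio of *Psmb10* to *Psmb7* was 3.66, 2.35 and 1.52 in the 3 groups, with a log2 change of -1.27 (SE 0.38) at BDL day 14, also beyond 3 SE. The ratio of *Psmb8* to *Psmb5* was 0.735, 0.423 and 0.541, with log2 changes of -0.80 (SE 0.43) and -0.44 (SE 0.40) that were not. Summed over the 3 pairs, the immunoproteasome subunits made up 49.5%, 37.3% and 33.1% of the per-kb level. These shares depend on the lengths used. Without division by length the summed immunoproteasome subunits stood at 1.60, 0.972 and 0.767 times the constitutive ones.

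**Figure D2:**
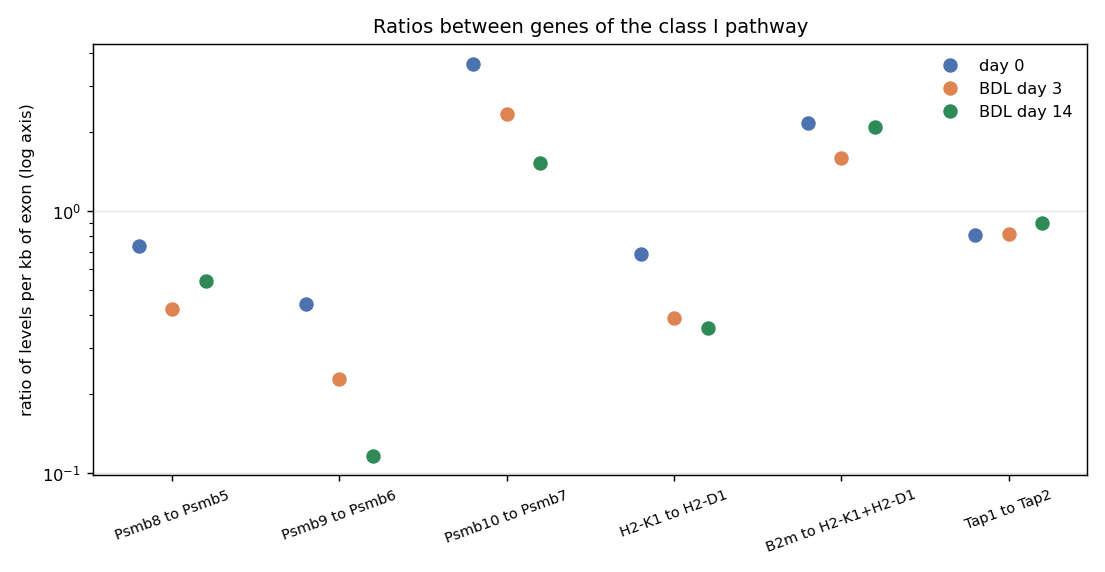
Ratios between genes of the pathway, each point being the ratio of 2 authors' group means per kb of exon, on a log axis. The *Psmb9* to *Psmb6* ratio was 0.441, 0.228 and 0.116 in the order of time, whereas *Tap1* to *Tap2* stayed between 0.810 and 0.896.

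*Nlrc5* encodes the transactivator that drives class I promoters. It had means of 36.6, 9.50 and 9.30 normalized counts and ranked 2565th at day 0 and 7267th at BDL day 14. Both BDL groups were lower by nearly the same amount, with a log2 ratio of -1.95 (SE 0.50) on day 3, of -1.98 (SE 0.47) on day 14 and of -0.03 (SE 0.47) between them. It was the 1 gene of the 10 that differed beyond 3 SE at BDL day 3.

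The highest *Nlrc5* library (50.5) can only lie in day 0. Without it the day 0 mean is 29.7 and the log2 ratios are -1.64 and -1.67. The limits of the libraries overlapped, with day 0 between 10.4 and 50.5, BDL day 3 between 2.71 and 18.7 and BDL day 14 between 2.56 and 19.7. At BDL day 3, *Nlrc5* was thus 3.85-fold lower while *H2-K1* and *B2m* were within their spread of day 0 and *H2-D1* had its highest mean.

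**Figure D3:**
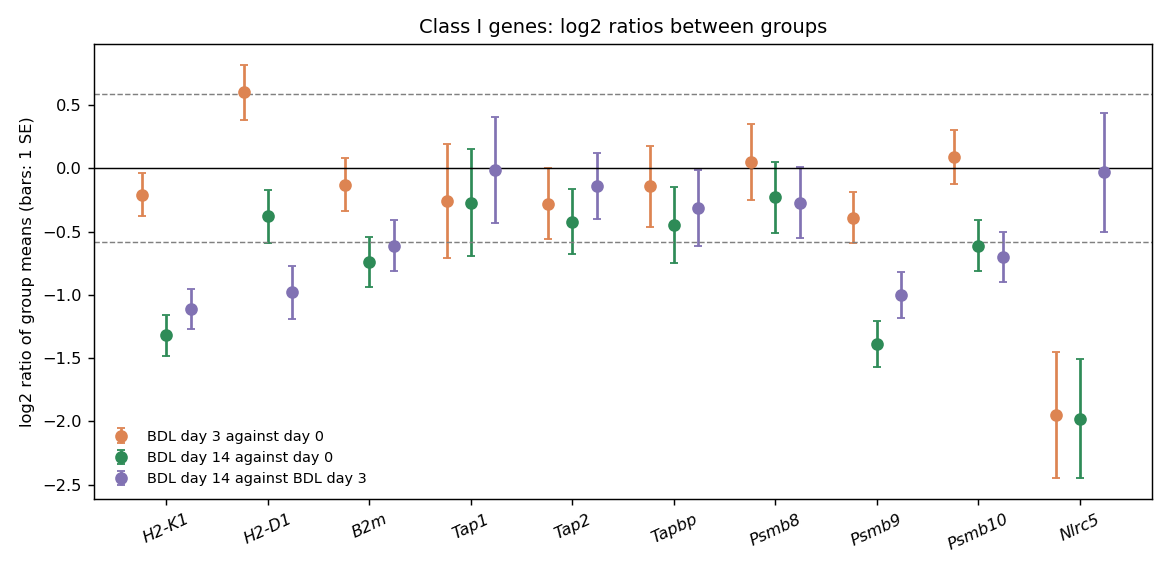
Log2 ratio of group means for each gene in the 3 comparisons, with bars of 1 SE from the derived spread and dashed lines at 1.5-fold. All 10 ratios of BDL day 14 against day 0 lie below 0, from -1.98 for *Nlrc5* to -0.23 for *Psmb8*, and at BDL day 3 only *H2-D1* (0.60) and *Nlrc5* (-1.95) lie outside the dashed lines.

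Over the 10 genes, BDL day 3 against day 0 gave 1 gene higher by over 1.5-fold (*H2-D1*) and 1 lower (*Nlrc5*), where 19.2% of all kept genes were higher and 29.2% lower by that much. Beyond 3 SE, 0 were higher and 1 was lower, against 5.25% and 6.78% of all kept genes. For 0 of the 10 was overlap with a lower BDL day 3 group impossible, against 3.30%. The median log2 ratio of the 10 genes was -0.17 and that of all kept genes -0.02.

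At BDL day 14 against day 0, 0 of the 10 were higher and 5 were lower by over 1.5-fold (*H2-K1*, *B2m*, *Psmb9*, *Psmb10* and *Nlrc5*), beside 21.2% and 28.8% of all kept genes. The same 5 were lower beyond 3 SE and 0 were higher, beside 9.28% and 7.09%. For *H2-K1* and *Psmb9* the groups could not overlap, as for 3.87% of all kept genes. All 10 ratios were below 0, with a median of -0.53 beside -0.04.

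At BDL day 14 against BDL day 3, 0 were higher and 5 were lower by over 1.5-fold (*H2-K1*, *H2-D1*, *B2m*, *Psmb9* and *Psmb10*), beside 21.2% and 19.7% of all kept genes. The same 5 were lower beyond 3 SE and 0 were higher, beside 5.14% and 5.21%. For *H2-K1*, *H2-D1* and *Psmb9* the groups could not overlap within the spread allowed, beside 2.08%. The median was -0.46 beside -0.00. The comparisons share libraries, day 0 in both that are made against it and BDL day 14 in both that start from it.

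The counts of the lists that follow stand beside 28.8% of all kept genes lower and 21.2% higher by over 1.5-fold at BDL day 14 against day 0, and 29.2% and 19.2% at BDL day 3. Of 20 other class I and class I-like chains, 15 were kept. Against day 0, 10 of the 15 were lower and 1 higher by over 1.5-fold at BDL day 14. Beyond 3 SE, 8 were lower and 0 higher, beside 9.28% and 7.09% of all kept genes. The median log2 ratio of the 15 was -1.24. *H2-T23*, which encodes the Qa-1 chain, had means of 317, 291 and 177 normalized counts, a log2 ratio of -0.84 (SE 0.16) at BDL day 14, with no overlap possible. *Fcgrt*, the neonatal Fc receptor chain, had 263, 373 and 215, within the spread at both times. *Hfe*, the iron-regulating class I-like protein, had 140, 346 and 131, and was higher at BDL day 3 by a log2 ratio of 1.31 (SE 0.29).

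*H2-Q4*, *H2-Q6* and *H2-Q7* of the Qa region were chosen here after their values were seen. *H2-Q4* had means of 84.5, 45.8 and 32.1, *H2-Q6* of 41.4, 16.9 and 6.42, and *H2-Q7* of 70.5, 30.0 and 10.3 normalized counts. Their log2 ratios at BDL day 14 were -1.40 (SE 0.25), -2.69 (SE 0.70) and -2.77 (SE 0.50). These genes are near-identical in places, so the way reads were shared among them is uncertain.

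Of 9 folding and trimming partners in the endoplasmic reticulum, 0 were lower and 2 higher by over 1.5-fold at BDL day 14, and the median was 0.06. Beyond 3 SE, 1 was higher and 0 were lower, beside 7.09% and 9.28% of all kept genes. *Calr*, the chaperone calreticulin of the loading complex, had means of 666, 921 and 657 normalized counts, and *Pdia3*, its oxidoreductase, had 518, 419 and 462. *Canx* (calnexin) had 148, 205 and 227, with a log2 ratio of 0.62 (SE 0.22) that was within 3 SE.

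Of the 11 other subunits of the 20S proteasome, 7 were higher by over 1.5-fold at BDL day 3 and 3 at BDL day 14, 0 were lower, and 0 were beyond 3 SE. All 11 ratios were above 0 at both times, with medians of 0.69 and 0.41. *Psma7* had means of 147, 237 and 173 normalized counts and *Psmb1* had 104, 139 and 177. Of 7 activator and assembly genes, 0 passed 1.5-fold at either time against day 0. *Psme1* and *Psme2*, the PA28 activator that interferon-gamma induces, had means of 296, 335 and 221 and of 150, 174 and 124.

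Among 13 regulators of class I transcription, 4 were lower by over 1.5-fold at BDL day 14 and 0 higher, with a median of -0.24, the lower ones being near the share of all kept genes (28.8%). *Irf1*, which binds class I promoters, had means of 126, 92.4 and 63.1 normalized counts and a log2 ratio of -1.0 (SE 0.32) at BDL day 14, beyond 3 SE. *Nfkb1* had 45.5, 41.6 and 38.4, within the spread.

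Of 10 interferon receptor and signalling genes kept of 12, 2 were higher and 2 lower by over 1.5-fold at BDL day 14, no more than among all kept genes (21.2% and 28.8%), with a median of 0.16. *Ifngr1*, a chain of the interferon-gamma receptor, had means of 266, 280 and 297 normalized counts, *Jak1* had 182, 155 and 251, and *Ifnar2* had 122, 204 and 150. None of these 3 differed beyond 3 SE from day 0. *Ifng* was not among the genes kept, with means of 1.26, 0.286 and 0.105, of which the BDL means were at the floor of the table.

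Interferon-induced genes outside the class I pathway were lower. Of 18, 16 were lower by over 1.5-fold on BDL day 3, 17 were on BDL day 14, and 0 were higher on either day. Lower beyond 3 SE were 6 on day 3, beside 6.78% of all kept genes, and 7 on day 14, beside 9.28%. The medians of the 18 were -1.24 and -1.54. *Irf7*, a regulator of type I interferons, had means of 473, 475 and 64.7 normalized counts, with a log2 ratio of 0.01 (SE 0.32) at BDL day 3 and -2.87 (SE 0.30) at BDL day 14. *Ifit3* had 116, 51.9 and 32.0, and *Irgm1* had 77.7, 38.6 and 51.2.

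Class II genes, which present peptides taken up from outside, went the other way at BDL day 14. Of 7, 5 were higher and 0 lower by over 1.5-fold, with a median of 0.94, but 0 were beyond 3 SE. *Cd74*, the invariant chain, had means of 975, 731 and 1870 normalized counts and *H2-Aa* had 575, 481 and 1410, with log2 ratios of 0.94 (SE 0.52) and 1.29 (SE 0.59) against day 0. Of 7 cross-presentation genes kept of 8, 1 was higher and 3 were lower by over 1.5-fold. *Ifi30*, a lysosomal thiol reductase, had means of 483, 922 and 267, and *Cybb*, a subunit of the phagocyte oxidase, had 219, 405 and 532.

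**Figure D4:**
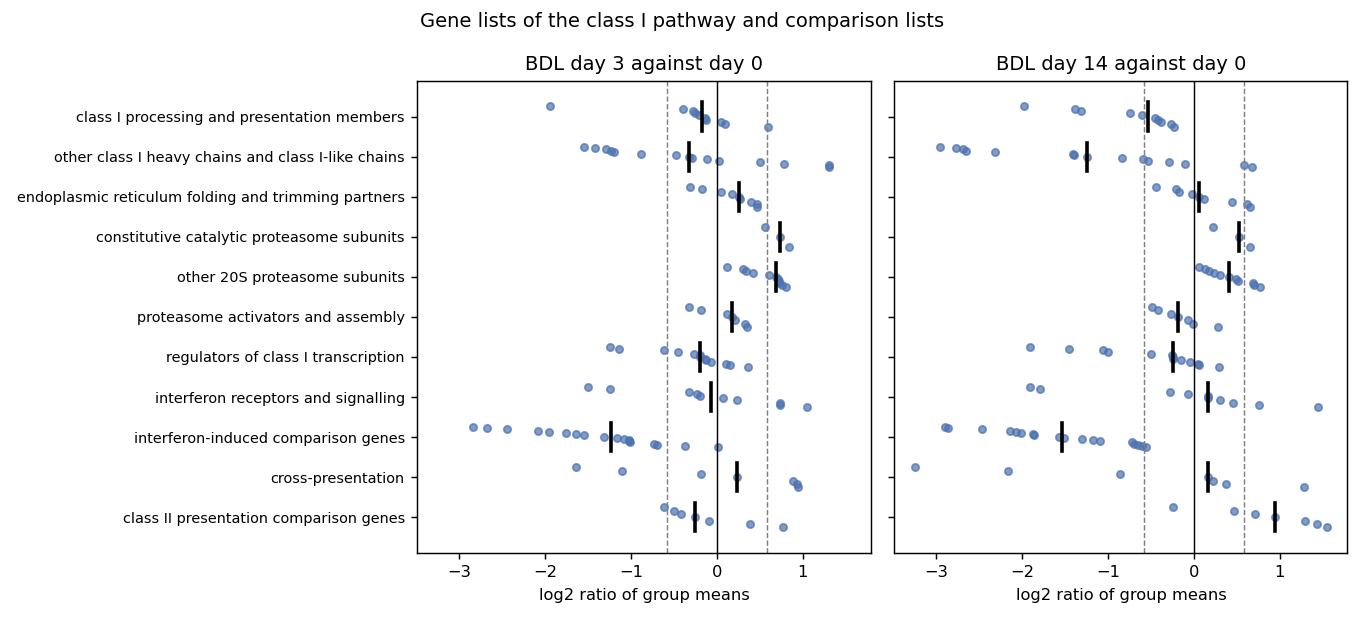
Log2 ratios of group means for the kept genes of each list, 1 point a gene, at BDL day 3 (left) and BDL day 14 (right) against day 0. Black bars are list medians and dashed lines mark 1.5-fold. At BDL day 14 the medians run from -1.54 for the interferon-induced genes to 0.94 for class II, with -0.53 for the 10 class I genes.

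The cells sorted by the *Prom1* label carried markers of several cell types. Macrophage markers summed to 12995, 23989 and 20962 normalized counts over 9 genes, of which *Lyz2* alone gave 2280, 4560 and 11200. Of the 9, 1 was higher and 1 lower by over 1.5-fold at BDL day 14 against day 0. Cholangiocyte markers summed to 536, 217 and 841 over 10 genes, of which *Spp1* alone gave 459, 175 and 792. Of the 7 kept, 5 were lower and 1 (*Spp1*) higher by over 1.5-fold at BDL day 14 against day 0, and 0 were beyond 3 SE. *Krt19* had means of 21.5, 12.7 and 14.3. Kupffer cell markers summed to 9212, 20869 and 1278 over 5 genes, all 5 lower by over 1.5-fold at BDL day 14. Per kb of exon, macrophage markers summed to 9146, 17438 and 15479 and cholangiocyte markers to 303, 119 and 496, so that the bile duct markers that the label stands for were not the leading ones in any group.

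Markers of the lymphocytes and neutrophils had their highest sums at day 0, unlike those of macrophages and Kupffer cells. T and NK cell markers summed to 139, 46.7 and 12.9 over 9 genes. All 9 were lower by over 1.5-fold at BDL day 14 against day 0, but only 4 beyond 3 SE, and *Ncr1* was at the floor there. B cell markers summed to 180, 49.1 and 21.3 over 4 genes, all 4 lower by over 1.5-fold and beyond 3 SE at BDL day 14. Neutrophil markers summed to 485, 229 and 155 over 4 genes. Dendritic cell markers summed to 24.8, 9.03 and 21.1 over 5 listed of 6. Of these 5, 3 were higher and 2 lower by over 1.5-fold at BDL day 14 against day 0. *Ptprc*, the common leukocyte antigen CD45, had means of 148, 129 and 119, with a log2 ratio of -0.31 (SE 0.29) at BDL day 14.

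Hepatocyte markers summed to 3313, 903 and 364 over 6 genes, stellate cell and fibroblast markers to 638, 23.4 and 65.6 over 8 genes, and sinusoidal endothelial markers to 882, 561 and 863 over 6 genes. The part of these shifts in the class I values was not tested. In such bulk samples fewer cells of a type and less RNA per cell cannot be told apart.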

How the data were processed

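mRNA of sorted GFP(+) cells was sequenced from 12 labelled libraries, of which 10 stand in the table. The authors trimmed reads (quality 20, length 25), aligned them with STAR to mm10 with GENCODE M18 genes and normalized by the upper quartile method in Partek Flow. The submitters' processing notes name STAR 2.6.1d. The deposited signal values are the authors' least squares means of normalized counts per group, with their mean, geometric mean and highest value over libraries. Further columns hold the results of the authors' own comparisons (fold changes and ratios with their limits, p-values and FDR) and were not used.

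The number of reads behind a library is unknown, and counting error is not given. The table holds 0 columns of values per library, so nothing was tested. Genes were kept where the means weighted by group size summed to at least 10 (12889 of 16971 listed, 2 repeated symbols dropped). The filter, the fold of 1.5 and the ratios of means used pandas 2.3.3 and numpy 2.4.6. A group mean no higher than 4 times the smallest one in that group counted as at the floor.

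D is the weighted mean of the natural logarithms of the group means minus the natural logarithm of the geometric mean. The pooled variance is 2D times 10/7. The largest D that rounding allows was used. This choice and the threshold of 3 SE were made with the values under both estimates known. Limits on libraries use the highest value and D.

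Lengths and overlaps came from GENCODE M21, whose coordinates match those of the table for 10 of the 10 genes after its end positions were lowered by 1 base. The length of a gene is that of its exons merged over all annotated transcripts, which can be longer than its mRNA. Promoters came from RefSeq. The 10 genes and all lists were chosen with earlier results of these data known. In each list the 2 to 4 genes with the highest mean were named, other exceptions being stated and 1 gene not being reported here, with all 10 genes and the 3 constitutive subunits. The labels do not say whether the samples of a group are separate mice, and the study counts them as mice. Alternatives were median-ratio and quantile scaling, a pseudocount of 1, no filter, a mean of at least 10, the highest library taken out, a fold of 2, ratios without length, limits from the highest library alone and the other estimate of the spread.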

Additional observations from a re-analysis of the deposited data

How the results depend on the processing

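Quantile normalization of the group means gave 0 genes higher and 3 lower by over 1.5-fold at BDL day 3 against day 0 (1 and 1 with the authors' scaling) and 3 lower at BDL day 14 against BDL day 3 (5 with it), where *B2m* (-0.36) and *Psmb10* (-0.56) dropped out. It also moved the median of all kept genes to 0.12 and 0.10 at the BDL times against day 0. Taking out the highest library gave 0 higher at BDL day 3. A fold of 2 gave 0 higher at BDL day 3, 3 lower at BDL day 14 against day 0 and 1 lower against BDL day 3. Limits from the highest library alone separated no groups for any of the 10 genes, whereas the geometric mean, added after the data were seen, separated them for 2 genes at BDL day 14 against day 0 and 3 against BDL day 3. The spread from the printed values as they stand, also added later, gave 2 genes beyond 3 SE at BDL day 3 (*H2-D1* and *Nlrc5*) in place of 1. The causes were not tested.

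No value called by its fold changed sign. Median-ratio scaling and a pseudocount of 1 moved none of these counts by over 1.5 times. No filter and a mean of at least 10 could not move them, because all 10 genes pass either filter. Median-ratio scaling gave 4 genes lower at BDL day 14 against day 0 in place of 5, without *Psmb10* (-0.58), and quantile normalization gave 6, with *Tapbp* (-0.62). No scaling or pseudocount moved a median over the 10 genes by more than their median spread, and quantile normalization gave -0.43, -0.68 and -0.26. Leaving out each library in turn was not run, because the table has no values per library. No paired analysis was possible because the result comes from no test and the columns carry no replicate numbers. The 3-digit rounding of the table limits the spread, which for *B2m* could lie anywhere from 0.00 to 0.26.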
